A study of Mus musculus with 4 samples.

Results

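The cells described here are Td+ endosteal bone marrow cells that carried transcripts of Ostn, Tnn and Aspn together, the combination taken here as the mark of late mesenchymal progenitors. Whether they match the cluster to which the study gave this name was not tested. A cell was taken when it held at least 1 UMI (a unique molecular identifier, the tag that counts 1 captured transcript) of Ostn, at least 1 of Tnn and at least 2 of Aspn. It also had to hold no UMI of Ptprc, the pan-leukocyte gene CD45, fewer than 2 UMIs of Ly6a, and fewer than 100 UMIs of Bglap plus Bglap2 and 8 of Adipoq per 10000 UMIs. In all, 319 of 24084 kept cells met the rule, 85 of 8308 at 1 month of age, 167 of 5453 at 1.5 months, 35 of 4180 at 3 months and 32 of 6143 at 16 months. They are called Ostn+ Tnn+ Aspn+ cells below.

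The study sequenced single cells from the long bones of male Col2:Td mice (strain B6SJL/F1), which carry Col2-Cre and a Rosa26 lsl-tdTomato reporter, at 4 ages. Each age is 1 library made from pooled mice, 2 at 1 month and 3 at each of 1.5, 3 and 16 months. All groups carry the same alleles, none was treated, and age is the only difference that the labels name. Cells came from a digest of metaphyseal bone without periosteum and with the central marrow washed out, and the sort took Td+ cells, limited to the brightest 1% in samples whose Td+ cells did not separate as a peak. The reporter is set by a chondrocyte promoter and is permanent, so Td marks descent from any cell that once used Cre and not a cell type. With 1 library per age there is no replicate, no test between ages was made, and the intervals in parentheses (95% Poisson for levels, exact 95% Clopper-Pearson for shares of cells) cover counting error only.

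Bone marrow mesenchymal progenitors that line the bone surface give rise to osteoblasts, which lay down a matrix of type I collagen, and on the way they pass through stages marked by matricellular proteins and small leucine-rich proteoglycans. Ostn encodes osteocrin, a small secreted peptide of osteoblasts and periosteal cells that binds the natriuretic peptide clearance receptor. Tnn encodes tenascin-W, a matrix glycoprotein of bone-forming surfaces, and Aspn encodes asporin, a proteoglycan that binds collagen and TGF-beta.

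Levels are given as CPM, the UMIs of a gene per 1000000 UMIs after all cells of 1 set in 1 library were added up, and a run of 4 values follows the order 1, 1.5, 3 and 16 months. The libraries counted UMIs at the 3′ end of transcripts, and levels are compared between cells and ages, not between genes. The Ostn+ Tnn+ Aspn+ cells held 957377, 1687439, 234415 and 352090 UMIs in sum, so that 3 UMIs amount to 3.13, 1.78, 12.8 and 8.52 CPM. Their median depth was 10981, 9598, 6524 and 10356 UMIs and 3054, 2776, 2147 and 2998 genes per cell. The 3 month cells were the shallowest, and their values have the widest intervals.

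Other sets of the same libraries give the scale. They are Ly6a+ Cd34+ Mfap5+ cells, the set with genes of early progenitors (99, 103, 27 and 23 cells), Bglap-high Ifitm5+ cells, the osteoblasts (248, 464, 331 and 318 cells), Adipoq+ Cxcl12+ stromal cells (170, 1186, 353 and 2904 cells) and Nov+ Tnmd+ cells, which carry tendon genes (60, 86, 68 and 9 cells). Cells with at least 500 UMIs of S100a8 plus S100a9 per 10000, taken as neutrophils (2547, 25, 567 and 341 cells), should lack the genes of bone matrix, so a transcript counted in them is read as the level of free RNA. In the Ly6a+ Cd34+ Mfap5+ cells 3 UMIs amount to 3.58, 3.27, 27.5 and 16.9 CPM and in the osteoblasts to 0.707, 0.403, 0.801 and 0.342 CPM, which is what a value of 0 allows there. Only 25 neutrophils were found at 1.5 months, and they carried the chondrocyte gene Col2a1 at 3638 CPM. The study reports that Td and Col2a1 were detected in cells outside the mesenchymal lineage. Free RNA and transcripts made by such cells themselves were not told apart here. Over all kept cells the median depth lay between 6264 and 10279.5 UMIs. The 16 month table lists 31054 genes and the other 3 list 27999 genes, its barcodes come from another list, and the 26600 genes found in every table were used, so age 16 months and this difference in the tables cannot be told apart. Pairs of libraries shared between 1 and 61 barcodes, and no barcode was an Ostn+ Tnn+ Aspn+ cell in more than 1 library.

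The rule genes sat well above their lower limits in most cells. The median cell held 37, 31, 31 and 29.5 UMIs of Aspn, 8, 4, 6 and 6 of Ostn and 8, 6, 8 and 7.5 of Tnn. Just inside the limit, 1, 5, 0 and 1 cells held exactly 2 Aspn UMIs, and just outside it 1, 14, 0 and 1 cells that met every other condition held 1. Cells with 1 UMI of Ostn numbered 17, 47, 7 and 3, and cells with 1 UMI of Tnn 11, 22, 2 and 7. Of the 134, 249, 73 and 47 cells that held all 3 transcripts, 20, 67, 32 and 11 were set aside for osteocalcin (Bglap and Bglap2), 6, 21, 6 and 2 for Ly6a, 30, 0, 4 and 1 for Ptprc and 0, 1, 1 and 2 for Adipoq. The limit on osteocalcin thus removed cells in every library.

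As chosen, the cells carried Ostn at 936 (876 to 999), 1159 (1108 to 1211), 1647 (1486 to 1819) and 1003 (901 to 1113) CPM. In Ly6a+ Cd34+ Mfap5+ cells Ostn stood at 5.97, 10.9, 9.15 and 0 CPM and in Bglap-high osteoblasts at 14.6, 14.1, 12.3 and 4.56 CPM. Tnn was counted at 783, 882, 1314 and 903 CPM and Aspn at 3904, 3700.3, 5460.4 and 3178 CPM, and Aspn was also found in the Ly6a+ Cd34+ Mfap5+ cells, at 454, 866, 1053 and 513 CPM. These 3 genes chose the cells, so their levels are a description. All 3 were highest in the 3 month library, whose cells were the shallowest. The lower limits are fixed UMI counts, so a shallower cell needs a higher CPM to pass. The part of depth in this order was not tested. Ostn lies on chr16:27307489-27351212 (plus strand, GENCODE M21 on GRCm38) and Tnn on chr1:160085029-160153580 (minus strand). Aspn lies on chr13:49544443-49567565 (plus strand), in a row of related proteoglycan genes with Ecm2 on one side (chr13:49504810-49532789) and Omd (chr13:49582462-49592822) and Ogn (chr13:49608046-49624501) on the other, all inside the span of the antisense gene Cenpp (chr13:49464023-49652785, minus strand). Cenpp itself was counted at 2.09, 2.96, 0 and 2.84 CPM in these cells.

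Of the markers that the rule did not read, Postn encodes periostin, a matricellular protein of periosteum and of bone-forming surfaces. Postn was counted at 4848 (4709 to 4989), 6417 (6297 to 6539), 8216 (7853 to 8592) and 5408 (5168 to 5656) CPM in the Ostn+ Tnn+ Aspn+ cells. It stood at 1549, 779.7, 211 and 62.0 CPM in Ly6a+ Cd34+ Mfap5+ cells, at 519.7, 213, 23.8 and 17.4 CPM in Nov+ Tnmd+ cells, at 133, 235, 97.2 and 80.7 CPM in Bglap-high osteoblasts and at 59.3, 82.5, 29.1 and 11.9 CPM in neutrophils. With 3000 UMIs drawn at random from every cell (thinning), Postn was detected in 95.3%, 96.4%, 100% and 96.9% of the Ostn+ Tnn+ Aspn+ cells (98.8%, 99.4%, 100% and 100% without thinning), against 9.11%, 24%, 5.05% and 4.65% of neutrophils, whose median depth was 13074, 10182, 6593 and 8037 UMIs before thinning. Nearly every selected cell therefore carried Postn at each age. The ratio to the Ly6a+ Cd34+ Mfap5+ cells was 3.13 at 1 month and 87.3 at 16 months, where those cells had their lowest level. After thinning, Edil3 was detected in 20%, 40.7%, 41.2% and 56.2% of the cells and Dkk3 in 61.2%, 62.9%, 73.5% and 50%. Edil3, which encodes an integrin-binding matrix protein, was counted at 91.9, 166, 260.2 and 264 CPM against 11.9, 18.5, 45.8 and 50.7 CPM in Ly6a+ Cd34+ Mfap5+ cells. Dkk3, a secreted protein of the Dickkopf family, stood at 335, 508, 567 and 278 CPM against 44.2, 94.9, 119 and 33.8 CPM. Postn, Edil3 and Dkk3 were at least 2-fold above both the Ly6a+ Cd34+ Mfap5+ cells and the osteoblasts in every library.

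**Figure D1:**
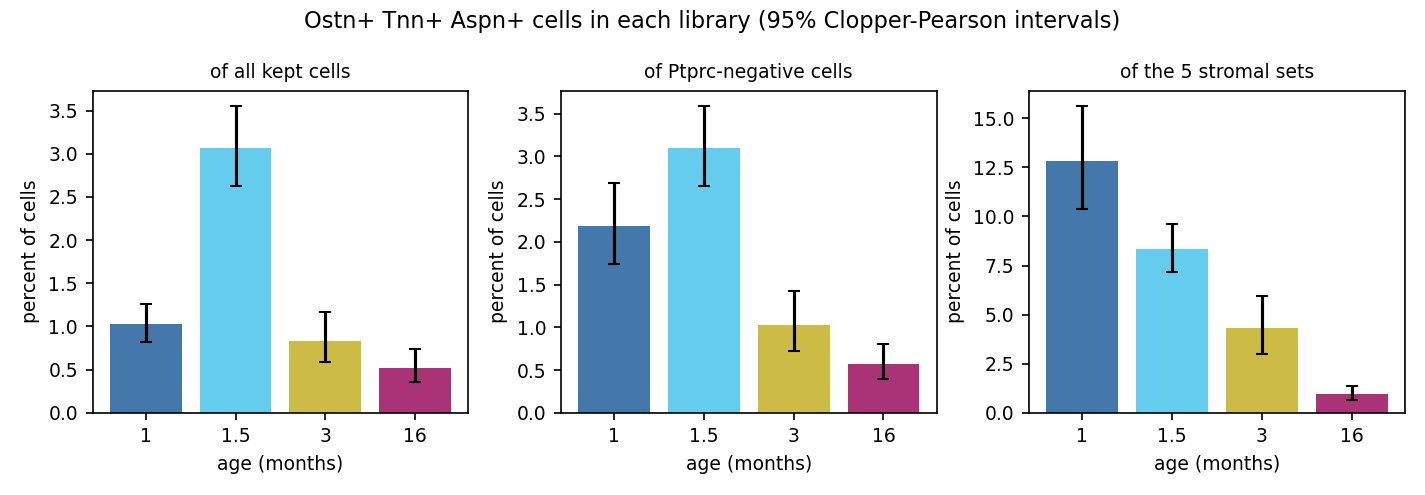
Share of Ostn+ Tnn+ Aspn+ cells in each library, as percent of all kept cells (left), of Ptprc-negative cells (middle) and of the 5 stromal sets together (right), against age in months. Bars are the share in 1 library and whiskers exact 95% Clopper-Pearson intervals. The 1.5 month bar is the tallest over all kept cells, while over the stromal sets the bars step down from 12.8% at 1 month to 0.974% at 16 months.

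The share of these cells depended on what they were counted against. They made up 1.02% (0.818 to 1.26) of the kept cells at 1 month, 3.06% (2.62 to 3.55) at 1.5 months, 0.837% (0.584 to 1.16) at 3 months and 0.521% (0.357 to 0.735) at 16 months. Over Ptprc-negative cells alone the shares were 2.18%, 3.09%, 1.03% and 0.572%. Over the sum of the 5 stromal sets (these cells, the Ly6a+ Cd34+ Mfap5+ cells, the Nov+ Tnmd+ cells, the osteoblasts and the Adipoq+ Cxcl12+ cells) they were 12.8% (10.4 to 15.6), 8.33% (7.15 to 9.62), 4.30% (3.01 to 5.93) and 0.974% (0.667 to 1.37). On this last scale each age lay below the one before, with intervals that did not overlap. The Adipoq+ Cxcl12+ cells of that sum numbered 170 at 1 month and 2904 at 16 months, and the sort set which cells entered a library. Fewer Ostn+ Tnn+ Aspn+ cells and less RNA of the 3 rule genes per cell cannot be told apart by such a share.

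Beyond the rule, 58 of the 1785 genes with at least 50 CPM in the selected cells of every library were at least 2-fold higher than in both the Ly6a+ Cd34+ Mfap5+ cells and the Bglap-high osteoblasts in each library, which is 3.25% of the genes compared. No gene was past the fold below both. In 16 of the 58 a library of 1 of those sets held no UMI, and with such a library set to 3 UMIs all 58 still passed. The 58 include Ostn, Tnn and Aspn themselves, and because the cells were chosen by their reads, the list is a description of what they carry. Outside the rule genes, the 20 genes with the widest margin (the lowest of the 4 ratios over the higher of the 2 sets) were Pdzrn4, Col12a1, Tspan7, Col16a1, Efna5, Wnt16, Thbs2, Fmod, Podnl1, Col8a2, Tpm2, Mylk, Tmem2, Edil3, Pak1, Dkk3, Fgfr3, Wnt5b, S1pr1 and Cmtm4. They hold matrix proteins, secreted Wnt ligands, cell surface receptors and genes of the contractile cytoskeleton.

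**Figure D2:**
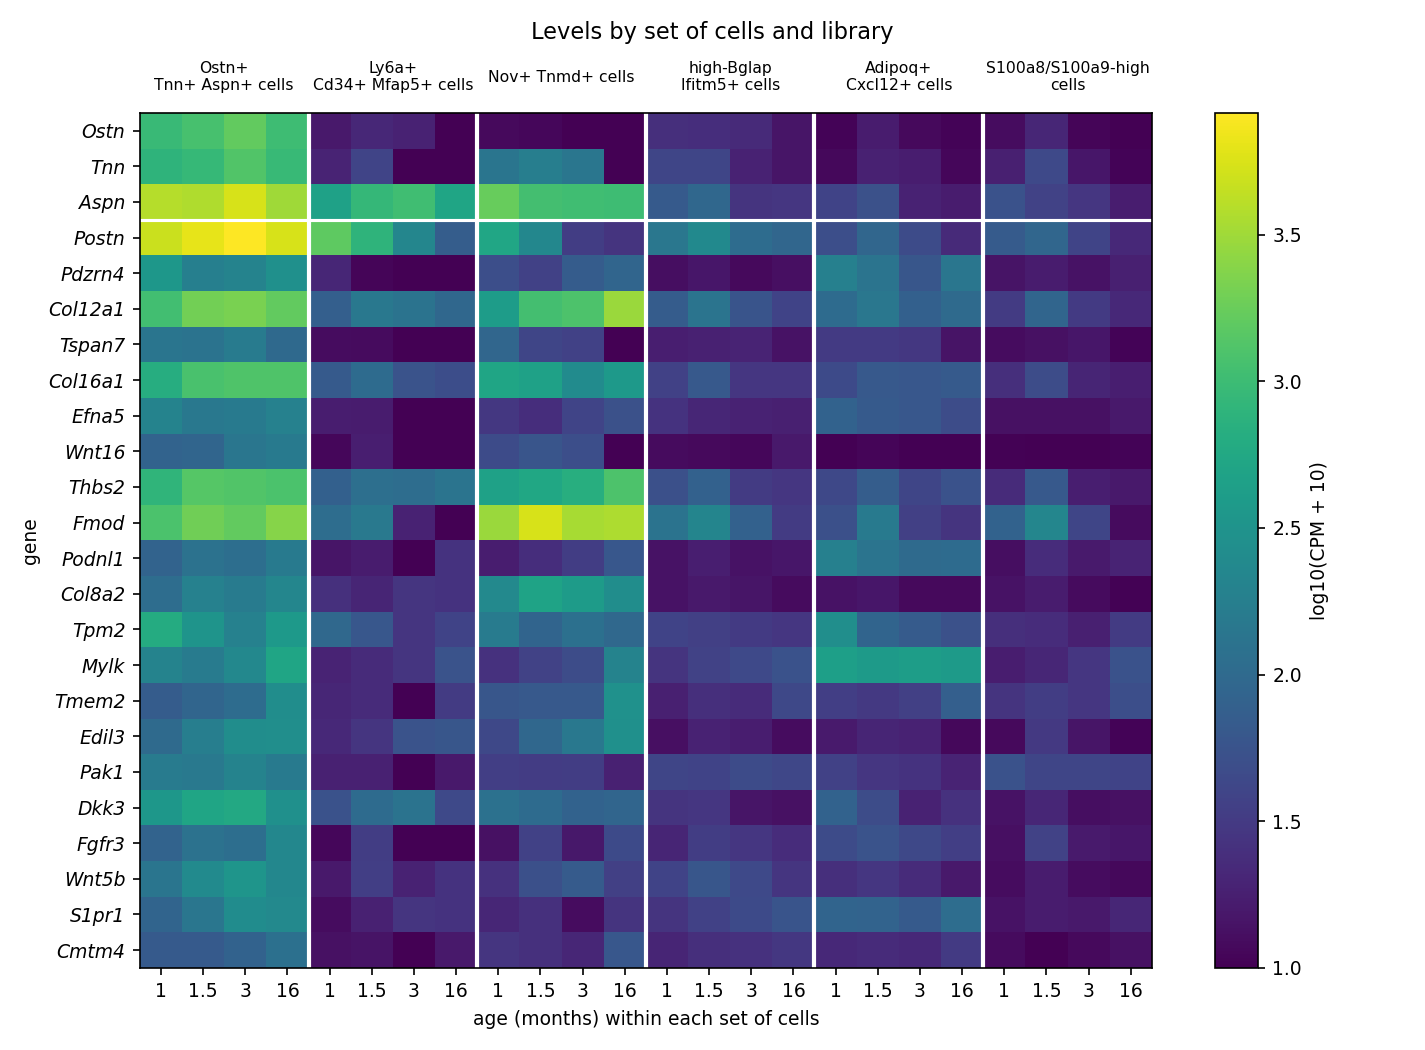
Levels of the 3 rule genes (above the white line), Postn and the 20 genes with the widest margin, as log10 of CPM plus 10 (colour), in 6 sets of cells and at 4 ages (columns, in months). The Ostn+ Tnn+ Aspn+ cells form the bright block at the left, the Nov+ Tnmd+ cells share its collagen and Fmod rows, and the Adipoq+ Cxcl12+ cells share its Mylk row.

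Matrix genes are described first. Col12a1, a collagen that sits on the surface of collagen fibrils, was counted at 1069, 1967, 2129 and 1633 CPM against 66.9, 136, 119 and 84.5 CPM in Ly6a+ Cd34+ Mfap5+ cells and 60.1, 122, 47.8 and 28.9 CPM in osteoblasts. Col16a1, of the same fibril-associated family, stood at 647, 1184, 1271 and 1275 CPM against 57.3, 93.8, 45.8 and 39.4 CPM in Ly6a+ Cd34+ Mfap5+ cells and 27.1, 55.4, 19.2 and 18.8 CPM in osteoblasts, and Col8a2, a short-chain collagen, at 101, 180.2, 154 and 210.2 CPM against 15.5, 9.81, 18.3 and 16.9 CPM in the former and 4.01, 5.90, 4.54 and 2.05 CPM in the latter. These 3 were the collagens past the fold over both sets, of 12 compared, beside 3.25% of all genes. Col1a1, the main collagen of bone, was by contrast intermediate, at 14317, 31536, 32349 and 27019 CPM between 7111, 6386, 1831 and 2022 CPM in Ly6a+ Cd34+ Mfap5+ cells and 54463, 64759, 47011 and 81152 CPM in osteoblasts. Col3a1, the collagen of loose connective tissue, was shared with the Ly6a+ Cd34+ Mfap5+ cells (7494, 14715, 17878 and 12378 CPM in the selected cells and 8725, 11961, 5346 and 1876 CPM there) and stood at 311, 629, 135 and 60.6 CPM in osteoblasts. In each library Col1a1 was thus lower than in the osteoblasts, and Col3a1 was at least 2-fold above them. The collagen list summed to 39966.5, 83618, 91662 and 73984 CPM in the selected cells. In Nov+ Tnmd+ cells it summed to 41071, 62778, 25932 and 21898 CPM.

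Among the small leucine-rich proteoglycans, 4 of 9 genes compared were past the fold over both sets (Aspn, which the rule used, Fmod, Omd and Podnl1), against the 3.25% of all genes. Fmod encodes fibromodulin, which steers the growth of collagen fibrils, and was counted at 1222, 1922, 1629.6 and 2443 CPM against 102, 139.6, 9.15 and 0 CPM in Ly6a+ Cd34+ Mfap5+ cells and 119, 203, 70.0 and 22.3 CPM in osteoblasts. It was higher still in the Nov+ Tnmd+ cells, at 2967, 5437, 3429 and 3557 CPM. The proteoglycan list as a whole was also higher there in every library. It summed to 18957, 32725, 32933 and 28525 CPM there and to 15271, 21752.5, 27003 and 27643.5 CPM in the selected cells. Podnl1 stood at 74.2, 116, 102 and 145 CPM against no more than 16.9 CPM in either set, and at 175, 124, 90.5 and 93.2 CPM in the Adipoq+ Cxcl12+ cells. Lum (lumican) was counted at 4473, 6203, 8502 and 8086 CPM. Prelp was the 1 of 10 members that was at least 2-fold below the Ly6a+ Cd34+ Mfap5+ cells in every library, at 44.9, 155, 42.7 and 51.1 CPM against 148, 586, 494 and 265 CPM. Dcn (decorin) was also lower than there, at 2429.6, 4929, 7858 and 8427 CPM against 7435, 10487, 15681 and 18326 CPM, but not 2-fold at 3 months. Without Aspn, the median log2 difference of the family was 0.94 over the Ly6a+ Cd34+ Mfap5+ cells and 2.65 over the osteoblasts, where all genes compared had 0.01 and 0.37.

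Of the matricellular proteins, which modulate contacts between cells and matrix, 4 of 12 were past the fold over both sets, beside 3.25% of all genes. They were Tnn, whose place was fixed by the rule, Postn, Thbs2 and Tnc. The list summed to 29048, 42929.6, 51422 and 40353 CPM in the selected cells. In Nov+ Tnmd+ cells it summed to 30827, 47588, 33764 and 18054 CPM. Thbs2 (thrombospondin 2) was counted at 801, 1380.2, 1309.6 and 1229.8 CPM against 69.3, 107, 101 and 124 CPM in Ly6a+ Cd34+ Mfap5+ cells and 41.9, 70.1, 21.9 and 18.6 CPM in osteoblasts. Tnc (tenascin-C) stood at 706, 926, 896 and 1042 CPM against 66.9, 126, 45.8 and 169 CPM in Ly6a+ Cd34+ Mfap5+ cells and 72.8, 155, 234 and 264 CPM in osteoblasts. Sparc (osteonectin), a collagen-binding protein abundant in bone, was at 19434, 28688, 37182 and 27732 CPM, between 11539, 12965, 7360.1 and 2473 CPM in Ly6a+ Cd34+ Mfap5+ cells and 46725, 46293, 48122 and 41881 CPM in osteoblasts. The elastic fibre genes went the other way against the Ly6a+ Cd34+ Mfap5+ cells, where 8 of 13 compared were at least 2-fold lower in every library, against 6.25% of all 2239 genes compared. Mfap5 is among the 8, and its place was fixed by the gate of those cells. Fbn1 (fibrillin-1), the core of microfibrils, stood at 13.6, 27.3, 8.53 and 22.7 CPM in the selected cells and at 485, 466, 522 and 406 CPM in those cells. Of the 22 genes of collagen processing compared with both sets, none was past the fold, beside 3.25% of all genes.

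Of the secreted signals, the Wnt list showed 3 of 4 compared genes past the fold over both sets, beside 3.25% of all genes, namely Wnt16, Wnt5b and Dkk3. Wnt16, a ligand known for its role in cortical bone, was counted at 74.2 (57.9 to 93.5), 80.0 (67.1 to 94.7), 128 (86.3 to 183) and 148 (110.3 to 194) CPM against 1.19, 7.63, 0 and 0 CPM in Ly6a+ Cd34+ Mfap5+ cells, 2.12, 1.74, 1.34 and 5.70 CPM in osteoblasts and 0, 1.07, 0 and 0.0346 CPM in Adipoq+ Cxcl12+ cells. Wnt5b, a ligand of the non-canonical branch, stood at 125, 238, 324 and 216 CPM against 5.97, 25.1, 9.15 and 16.9 CPM in Ly6a+ Cd34+ Mfap5+ cells and 28.5, 50.9, 34.5 and 17.9 CPM in osteoblasts. In Nov+ Tnmd+ cells Wnt16 stood at 36.0, 48.1, 39.7 and 0 CPM, between the selected cells and the other sets. After thinning it was detected in 20%, 18.6%, 29.4% and 25% of the selected cells (42.4%, 46.1%, 54.3% and 59.4% without thinning) and in 0.118%, 0%, 0% and 0% of neutrophils. Other members of the list were lower. Sfrp4, a secreted Wnt antagonist, was counted at 65.8, 359.7, 375 and 247 CPM against 1429.9, 2502, 5538 and 1127 CPM in the Ly6a+ Cd34+ Mfap5+ cells, and Wif1, another antagonist, at 71.0, 61.0, 8.53 and 0 CPM against 226, 255, 176 and 88.7 CPM in osteoblasts.

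Osteocrin acts by occupying the clearance receptor of natriuretic peptides, encoded by Npr3, which leaves more C-type natriuretic peptide (Nppc) for the signalling receptor Npr2. In the selected cells Npr3 was counted at 0, 0, 0 and 2.84 CPM, Npr1 at 0, 0.593, 4.27 and 2.84 CPM and Npr2 at 9.40, 14.2, 12.8 and 39.8 CPM, all under the 50 CPM used for comparisons. Nppc stood at 6.27, 56.3, 0 and 45.4 CPM, and its 3 highest cells held 68.4% of its UMIs at 1.5 months and 100% at 16 months. Furin, a protease that cleaves prohormones, was counted at 43.9, 81.2, 64.0 and 65.3 CPM in these cells and 46.6, 43.6, 45.8 and 67.6 CPM in Ly6a+ Cd34+ Mfap5+ cells. No receptor of the pathway thus reached the level at which genes were compared, at any age.

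Among growth factor receptors, Fgfr3 was past the fold over both sets, at 75.2, 114, 102 and 213 CPM against 1.19, 24.0, 0 and 0 CPM in Ly6a+ Cd34+ Mfap5+ cells and 10.1, 24.3, 19.2 and 13.6 CPM in osteoblasts. Fgfr2, its relative with a known role in osteoblasts, stood at 115, 138, 115 and 364 CPM against 4.78, 16.4, 18.3 and 11.3 CPM in Ly6a+ Cd34+ Mfap5+ cells and 22.4, 42.3, 58.2 and 85.6 CPM in osteoblasts. Pdgfra, which marks early mesenchymal progenitors, was at 10.4, 34.4, 25.6 and 54.0 CPM against 102, 155, 146 and 501 CPM in Ly6a+ Cd34+ Mfap5+ cells. S1pr1, a receptor of sphingosine 1-phosphate, was counted at 77.3, 130.4, 252 and 227 CPM against 2.39, 8.72, 18.3 and 16.9 CPM in Ly6a+ Cd34+ Mfap5+ cells and 17.7, 26.4, 35.3 and 46.5 CPM in osteoblasts. Efna5, a membrane-bound ephrin ligand, stood at 189, 138, 149 and 182 CPM against at most 7.17 CPM in Ly6a+ Cd34+ Mfap5+ cells and 17.0 CPM in osteoblasts. Pth1r, the receptor of parathyroid hormone, was at 453, 577, 456 and 375 CPM, near the 473, 556, 753 and 485 CPM of osteoblasts and above the 51.4, 111, 82.4 and 28.2 CPM of Ly6a+ Cd34+ Mfap5+ cells. Fgfr3 and S1pr1 were thus above both sets, Fgfr2 above the Ly6a+ Cd34+ Mfap5+ cells in every library, and Pdgfra below them.

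In the insulin-like growth factor list, 6 of 7 genes compared were at least 2-fold above the osteoblasts in every library, against 12.2% of all 1972 genes compared. Against the Ly6a+ Cd34+ Mfap5+ cells 4 of 8 were at least 2-fold lower, beside 6.25% of all genes. Igf1 was counted at 263, 331, 397 and 437 CPM, above the 22.9, 18.4, 7.21 and 8.89 CPM of osteoblasts. In Ly6a+ Cd34+ Mfap5+ cells Igf1 stood at 1032, 1366, 421 and 377 CPM, higher than in the selected cells at 1 and 1.5 months and near them later. Igfbp6, a binding protein of IGF-II, stood at 33.4, 285, 478 and 738 CPM against 2299.5, 2105, 5181 and 3617 CPM in the latter. Htra1, a secreted protease that cleaves matrix and binding proteins, was at 646, 983, 1485 and 1179 CPM against 81.8, 96.5, 42.2 and 29.97 CPM in osteoblasts.

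Genes of the osteoblast lineage were present with a different balance from that of the osteoblasts. Of the osteogenic transcription factors, 3 of 13 compared were past the fold over the Ly6a+ Cd34+ Mfap5+ cells (5% of all genes were). Over the osteoblasts 2 of 13 were (12.2% of all genes). The 3 were Sp7, Dlx5 and Sox4. Sp7 (osterix), required for osteoblast formation, was counted at 93.0, 114, 93.9 and 59.6 CPM against 7.17, 7.63, 0 and 0 CPM in Ly6a+ Cd34+ Mfap5+ cells and 91.9, 121, 98.0 and 85.5 CPM in osteoblasts. Dlx5 stood at 123, 119, 137 and 153 CPM against 23.9, 19.6, 0 and 5.63 CPM in Ly6a+ Cd34+ Mfap5+ cells and 50.2, 63.5, 46.8 and 46.3 CPM in osteoblasts, and Runx2, the master regulator of the lineage, at 98.2, 100.2, 51.2 and 253 CPM against 9.56, 18.5, 27.5 and 22.5 CPM in Ly6a+ Cd34+ Mfap5+ cells and 75.9, 82.1, 105 and 167 CPM in osteoblasts. Dlx5 was thus above the osteoblasts in every library, Sp7 was within its counting interval of them at 16 months, and Runx2 was lower at 3 months and higher at 16 months. Cbfb, the partner of Runx2 in DNA binding, was 1 of the 58 genes past the fold, at 167, 224, 247 and 122 CPM against 41.8, 66.5, 73.2 and 39.4 CPM in Ly6a+ Cd34+ Mfap5+ cells and 76.3, 108, 94.3 and 56.5 CPM in osteoblasts.

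The genes of mineralization, in contrast, were lower than in osteoblasts for 9 of 14 compared, against 3.19% of all genes, and no gene of the list was at least 2-fold higher in every library. Among them were Spp1, Ifitm5, which the osteoblast gate used, Bglap3, Smpd3 and Car3. Spp1 (osteopontin) was counted at 971, 1659.9, 538 and 645 CPM against 8561, 5651, 5033 and 6428 CPM. The osteocyte list was below the osteoblasts for 4 of 5 genes compared, beside 3.19% of all genes. Sost, which encodes the osteocyte inhibitor sclerostin, had no UMI in any of the 319 cells, so its level was below the 3 UMIs per library given above. Alpl, the alkaline phosphatase needed for mineral and an early marker of commitment, was higher in every library without reaching 2-fold in each, at 1141, 787, 793 and 832 CPM against 500.3, 476, 516 and 224 CPM in osteoblasts and 60.9, 53.4, 9.15 and 22.5 CPM in Ly6a+ Cd34+ Mfap5+ cells. Alpl, Ibsp and Cthrc1 were at least 2-fold above the Ly6a+ Cd34+ Mfap5+ cells in every library. Since the rule set an upper limit on osteocalcin, the low level of genes that move with it was partly fixed by the choice.

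Genes of early progenitors were low, whereas several tendon genes were not. Of 19 early progenitor genes compared, 18 were at least 2-fold below the Ly6a+ Cd34+ Mfap5+ cells in every library, beside 6.25% of all genes. The gate of those cells itself used 3 of them. Dpt (dermatopontin) stood at 27.2, 23.1, 76.8 and 39.8 CPM against 1021, 1456, 577 and 451 CPM. Of the adipogenic and reticular list, 3 of 10 genes were below the Ly6a+ Cd34+ Mfap5+ cells, beside 6.25% of all genes, and none above them. Cxcl12, the chemokine of reticular cells, was counted at 158, 479, 695 and 418 CPM, with 114, 1389, 984 and 2572 CPM in neutrophils. From 1.5 months on the Cxcl12 level was thus below that of free RNA. Pparg, the adipocyte regulator, was counted at 1.04, 0.593, 0 and 0 CPM. Of the tendon and periosteal list, 3 of 5 compared genes were past the fold over both sets (Fmod, Scx and Clec11a), beside 3.25% of all genes. Nov and Prg4, 2 of the 8 compared with the Ly6a+ Cd34+ Mfap5+ cells alone, were at least 2-fold lower than there, beside 6.25% of all genes. Scx, the tendon transcription factor scleraxis, stood at 93.0, 116, 102 and 68.2 CPM against 82.7, 213, 55.6 and 60.9 CPM in Nov+ Tnmd+ cells, and Clec11a (osteolectin), an osteogenic growth factor, at 608, 783, 934 and 994 CPM against 153, 191, 128 and 124 CPM in Ly6a+ Cd34+ Mfap5+ cells and 144, 225, 247 and 161 CPM in osteoblasts. Tnmd (tenomodulin), a late tendon marker, was counted at 81.5, 59.3, 4.27 and 0 CPM, and 3 cells held 65.4% of its UMIs at 1 month. A small number of the selected cells, 1, 4, 0 and 0, also met the condition on Nov and Tnmd.

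Genes of the contractile cytoskeleton were carried by these cells and by other stromal cells. The list summed to 4536, 3086, 2231 and 2778 CPM in the selected cells, 3708, 2665, 2655 and 3156 CPM in Adipoq+ Cxcl12+ cells and 2375, 1871, 2026 and 2392 CPM in Nov+ Tnmd+ cells. Of 8 smooth muscle and contractile genes compared, 3 were past the fold over both the Ly6a+ Cd34+ Mfap5+ cells and the osteoblasts (Cnn3, Tpm2 and Palld), beside 3.25% of all genes. The sum was highest in the selected cells at 1 and 1.5 months and in the Adipoq+ Cxcl12+ cells later. Mylk (myosin light chain kinase), which was named by its margin and is not on that list, was counted at 189, 152, 222 and 514 CPM against 9.56, 13.1, 18.3 and 45.1 CPM in Ly6a+ Cd34+ Mfap5+ cells and 17.2, 27.9, 33.7 and 43.8 CPM in osteoblasts. In Adipoq+ Cxcl12+ cells Mylk stood at 431, 375, 413 and 380.5 CPM, higher than in the selected cells up to 3 months and lower at 16 months. Tpm2 (beta-tropomyosin) was at 616, 316, 183 and 355 CPM against 87.2, 52.3, 18.3 and 28.2 CPM in Ly6a+ Cd34+ Mfap5+ cells and 28.5, 25.6, 21.1 and 19.3 CPM in osteoblasts. Acta2, smooth muscle actin, was counted at 966 (905 to 1031), 219 (197 to 242), 51.2 (26.5 to 89.4) and 28.4 (13.6 to 52.2) CPM, a lower level in each older library. After thinning, Acta2 was detected in 51.8%, 23.4%, 11.8% and 6.25% of the cells (60%, 40.7%, 20% and 12.5% without thinning) and in 7.18%, 8%, 4.47% and 7.97% of neutrophils, so at 16 months the share was below the level of free RNA. Tagln (transgelin), an actin-binding protein of the same cells, was counted at 299, 153, 25.6 and 65.3 CPM, also highest at 1 month. The study describes Acta2 as a marker of its late mesenchymal progenitor cluster, and the selected cells were low in it at 3 and 16 months. For the pericyte gene Rgs5 at 1.5 months (85.3 CPM) 3 cells held 94.4% of the UMIs.

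The remaining genes of the widest margin are a mixed group. Pdzrn4, a protein with ubiquitin ligase and PDZ domains, was counted at 341, 172, 192 and 278 CPM against 10.8, 1.09, 0 and 0 CPM in Ly6a+ Cd34+ Mfap5+ cells and 2.83, 4.83, 1.87 and 3.305 CPM in osteoblasts, and Adipoq+ Cxcl12+ cells carried it at 178, 121, 49.8 and 130.0 CPM. Tspan7, a tetraspanin of the cell membrane, stood at 127, 119.7, 154 and 88.0 CPM against at most 9.35 CPM in those 2 sets. Tmem2, a cell surface hyaluronidase, was at 60.6, 78.8, 98.1 and 258 CPM and was as high in Nov+ Tnmd+ cells at 16 months, at 287 CPM. Pak1, a kinase downstream of Rac and Cdc42, was counted at 155, 139, 192 and 151 CPM with 44.5, 31.0, 31.1 and 28.5 CPM in neutrophils, and Cmtm4 at 57.4, 56.3, 72.5 and 108 CPM with 2.33, 0, 1.77 and 3.53 CPM there. Among adhesion genes, 2 of 4 compared were past the fold over both sets (Cdh11 and Ncam1), beside 3.25% of all genes. Cdh2, Cdh15 and Cadm1, 3 of 7 compared with the osteoblasts, were at least 2-fold lower than there, beside 3.19% of all genes. Cdh13, 1 of 5 compared with the Ly6a+ Cd34+ Mfap5+ cells, was lower than in those, beside 6.25%. Ncam1, the neural cell adhesion molecule, stood at 120.1, 261, 230.4 and 372 CPM against 34.6, 31.6, 45.8 and 5.63 CPM in Ly6a+ Cd34+ Mfap5+ cells and 50.7, 62.7, 107 and 149.8 CPM in osteoblasts. Of 4 integrins compared, 1 was past the fold over both sets, beside 3.25% of all genes. It was Itga11, a collagen receptor, at 116, 116, 102 and 168 CPM against 22.7, 29.4, 45.8 and 67.6 CPM in Ly6a+ Cd34+ Mfap5+ cells and 22.6, 26.2, 25.1 and 29.3 CPM in osteoblasts.

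Mmp13 encodes collagenase-3, which cleaves type I and type II collagen. It was counted at 276 (243 to 311), 2001 (1934 to 2069.9), 5068 (4784 to 5365) and 6285 (6026 to 6553) CPM, with each library above the one before. In Ly6a+ Cd34+ Mfap5+ cells it stood at 31.1, 149, 119 and 39.4 CPM, in osteoblasts at 92.6, 195, 264 and 183 CPM and in neutrophils at 44.8, 138, 185 and 87.6 CPM. In Adipoq+ Cxcl12+ cells the order was the reverse, at 2008, 1166, 556 and 211 CPM. After thinning, Mmp13 was detected in 24.7%, 82.0%, 91.2% and 100% of the selected cells (44.7%, 90.4%, 88.6% and 100% without thinning) and in 5.85%, 28%, 12.8% and 9.97% of neutrophils. The difference between libraries was spread over the cells, with a median cell at 0, 1024, 3527 and 4864 CPM. Mmp13 was not past the fold at 16 months, since the 3 month library lay close to it. Mmp14, the membrane-bound activator of other metalloproteinases, was counted at 1293, 935, 1335 and 557 CPM against 343, 208, 201 and 118 CPM in Ly6a+ Cd34+ Mfap5+ cells and 189, 116, 111 and 83.1 CPM in osteoblasts. Mmp13 and Mmp14 were the 2 of 9 genes of the protease list past the fold over both sets, beside 3.25% of all genes.

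The promoters of 2 rule genes and of Mmp13 are shown. The rule genes helped to choose the cells, and Mmp13 was higher in each older library. Each line holds the 250 bases before the transcription start in RefSeq on GRCm38.p6, 5′ to 3′ on the strand of the gene, for Tnn at chr1:160153576-160153825 (minus strand), Aspn at chr13:49544193-49544442 (plus strand) and Mmp13 at chr9:7272264-7272513 (plus strand). Capitals mark matches to a Runx motif (ACCACA or its reverse complement TGTGGT) and to an AP-1 motif (TGACTCA or TGAGTCA).
Tnn: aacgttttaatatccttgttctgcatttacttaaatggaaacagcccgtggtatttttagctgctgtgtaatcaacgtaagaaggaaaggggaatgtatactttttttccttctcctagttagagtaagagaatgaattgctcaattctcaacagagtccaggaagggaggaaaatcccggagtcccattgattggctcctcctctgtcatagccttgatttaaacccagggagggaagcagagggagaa
Aspn: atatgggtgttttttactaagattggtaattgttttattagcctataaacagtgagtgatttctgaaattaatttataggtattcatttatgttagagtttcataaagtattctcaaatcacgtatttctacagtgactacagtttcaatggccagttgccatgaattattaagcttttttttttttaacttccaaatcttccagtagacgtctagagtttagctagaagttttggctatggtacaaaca
Mmp13: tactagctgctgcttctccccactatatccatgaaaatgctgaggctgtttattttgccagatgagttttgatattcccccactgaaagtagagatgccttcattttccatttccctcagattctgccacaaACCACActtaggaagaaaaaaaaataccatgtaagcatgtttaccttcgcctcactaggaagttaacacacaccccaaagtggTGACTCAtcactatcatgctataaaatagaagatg
In the Mmp13 window the Runx match begins 118 bases and the AP-1 match 35 bases before the start, and the other 2 windows hold neither string of letters. Of 32851 promoter windows of the same length, 14.0% hold the Runx motif, 4.46% the AP-1 motif and 0.712% both. A match is a description of the letters only.

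The Ostn+ Tnn+ Aspn+ cells were not uniform, as the plot of single cells shows. Genes were ranked by their ratio of variance to mean after thinning, taken in the library where it was lowest. The highest were Malat1, Ibsp, Sparc, Col1a1, Spp1, Dcn, Col1a2, Postn, Fos, Mmp13, Ostn, Lum, Aspn, Col3a1 and Fth1. Many of them, such as Malat1, Sparc and Col1a1, are also among the transcripts with the highest mean level. The part of level in this ratio was not tested. Ibsp encodes bone sialoprotein, a matrix protein of early mineralization, and was summed to 777, 1662, 6612 and 1008 CPM. Its median cell was at 101, 281, 2693 and 423 CPM and its highest at 10127, 29724, 47698 and 10061 CPM, and the 3 highest cells held 29.7, 45.4, 52 and 58.9% of its UMIs. Without those 3 cells the 3 month level was 3616 CPM and the others 565, 952 and 490.4 CPM, so the 3 month library stayed highest. The cell with the highest Ibsp in each library carried Ostn at 1266, 48.7, 87.4 and 62.9 CPM. Its Postn level was 15189.9, 341, 1223 and 6225 CPM. At 1.5 months the cells with exactly 2 Aspn UMIs, at the edge of the rule, summed to 8040.25 CPM of Ibsp and 454 CPM of Postn. Spp1 was as uneven as Ibsp, with 58.1, 56.1, 77.0 and 71.4% of its UMIs in 3 cells. Postn was not, with 9.11, 6.58, 19.1 and 20.4%. Spp1 RNA was thus held mostly by a few cells in every library, while for Ibsp that share was lowest at 1 month and the median cell was highest at 3 months.

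**Figure D3:**
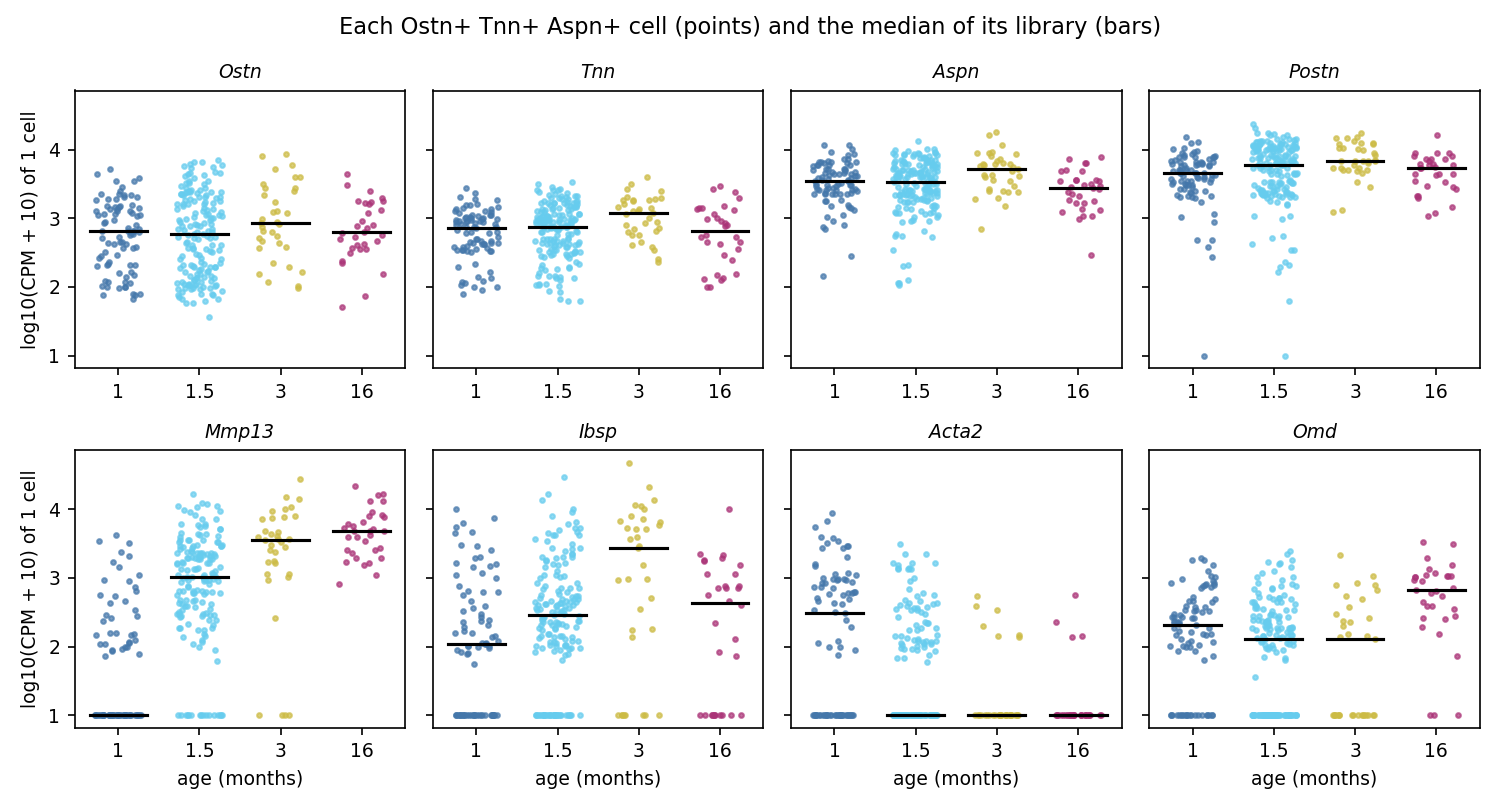
Level of 8 genes in each Ostn+ Tnn+ Aspn+ cell (points, log10 of the cell's CPM plus 10, so that a cell without a UMI lies at 1) by age in months, with black bars at the median of a library. Postn is high in nearly all cells, the median of Mmp13 moves from the floor at 1 month to its highest place at 16 months, Acta2 does the opposite, and Ibsp spreads over the whole axis.

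The contractile and osteogenic genes were compared cell by cell. After thinning, Acta2 was detected in 26.3% of the 19 cells with Sp7 at 1 month and in 59.1% of the 66 cells without it, and in 8.89% of 45 and 28.7% of 122 cells at 1.5 months. Ibsp was detected in 27.3% of the cells with Acta2 and 53.7% of those without it at 1 month, and in 41.0% and 65.6% at 1.5 months. Tagln went with Acta2, in 40.9% of the cells with Acta2 against 14.6% of those without at 1 month and in 53.8% against 14.8% at 1.5 months. At 3 and 16 months few cells had Acta2 after thinning, 3 of the 7 cells with Sp7 and 1 of the 27 without it at 3 months, and 1 of 4 and 1 of 28 at 16 months, so the order of the younger libraries was not seen there. These are counts of cells of 1 library each and no test was made on them.

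Genes of the cell cycle had lower sums at 3 and 16 months than before. The G2/M list summed to 1539, 639, 328 and 440.2 CPM and the S phase list to 729, 509.6, 337 and 381 CPM. In neutrophils the G2/M sums were 5708, 7039.7, 5345 and 5346 CPM. Mki67, the proliferation marker, was counted at 41.8, 10.1, 0 and 0 CPM, and after thinning in 8.24%, 0.599%, 0% and 0% of the cells, a share below that of neutrophils (26.6%, 16%, 19.2% and 17.3%) in each library. These are not genes of bone matrix, so their level in neutrophils is not read as that of free RNA. No cycling is read from these values, and the part of free RNA in them was not tested.

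Against the 3 younger libraries, a gene was counted as past the fold at 16 months when its level was at least 2 times their highest, or their lowest was at least 2 times its level, with intervals that did not overlap and at least 50 CPM on the higher side. Genes with at least 50 CPM in any 1 library were compared. In the Ostn+ Tnn+ Aspn+ cells 262 of 3581 genes (7.32%) were higher and 127 (3.55%) lower. Of the higher genes, 145 had at least 50 CPM in a younger library too, which is 4.6% of 3154 such genes, and the others were compared only because of their 16 month level. The median mitochondrial share of the selected cells was 2.22, 2.65, 2.44 and 3.66%, and 5 of the higher genes are mitochondrial, of 12 compared. In the same order 109, 292, 336 and 3086 barcodes failed the filter on cells. The part of RNA quality in the age contrast was not tested. By the same rule 167 of 3905 genes (4.28%) were higher in Ly6a+ Cd34+ Mfap5+ cells, 104 of 2408 (4.32%) in osteoblasts, 197 of 3547 (5.55%) in Adipoq+ Cxcl12+ cells and 213 of 2557 (8.33%) in neutrophils. The lower genes were 100 (2.56%), 62 (2.57%), 94 (2.65%) and 69 (2.7%). Of the 262 higher genes, 140 (53.4%) were past the fold in none of the other 4 sets and 15 in all 4, and of the 127 lower genes 67 (52.8%) and 12. The sets differ in how many genes were compared, so a gene past the fold in the selected cells alone is not shown to be particular to them. A difference of libraries and a difference of age cannot be told apart here.

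Several of the genes with the largest ratios differed in other sets too. Among the 10 largest ratios of the higher genes, Gm42418, a locus that overlaps ribosomal RNA, was counted at 278, 207, 230.4 and 16606 CPM, with 12408 CPM in neutrophils at 16 months. Lars2, a mitochondrial tRNA synthetase, stood at 10.4, 11.9, 8.53 and 875 CPM, with 3.97, 3.44, 4.42 and 755 CPM in neutrophils. Of the 10 largest ratios of the lower genes, Atp5o had 466, 338, 269 and 0 CPM and no UMI in any of the 6 sets at 16 months, and Rpl13a stood at 4018, 2706, 2252 and 88.0 CPM in the selected cells and 2136, 1475, 1269.6 and 49.6 CPM in neutrophils. Srp54b had 179, 173, 162 and 0 CPM, and 75.4, 96.3, 62.9 and 0 CPM in neutrophils. Gm9493, 3110079O15Rik, Fam177a, Gm9844 and Btf3l4 were also lowest at 16 months in neutrophils, with levels between 0.814 and 6.24 CPM there. Col2a1 and Col9a3, collagens of cartilage, had no UMI at 16 months and stood at 4292 and 689 CPM at 1.5 months, beside 3638 and 722 CPM in neutrophils. Each of these genes thus moved in the same direction in cells of another lineage.

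The other large ratios came with lower levels in neutrophils. Igfbp2, a binding protein of insulin-like growth factors, had 0, 1.19, 0 and 88.0 CPM in the selected cells and 0.271 CPM in neutrophils at 16 months, but 3 cells held 87.1% of its UMIs and 26 of 32 cells had none. Iigp1, an interferon-induced GTPase, stood at 0, 1.19, 4.27 and 133 CPM and Irgm1, of the same group, at 4.18, 2.37, 0 and 62.5 CPM. Ifi202b, an interferon-induced DNA-binding protein, was counted at 0, 6.52, 0 and 179 CPM and its relative Ifi203 at 2.09, 1.78, 4.27 and 111 CPM. In neutrophils at 16 months the 4 genes were at 13.6, 3.53, 4.88 and 12.5 CPM. Ifi202b was found in 28 of the 32 cells at 16 months. Fbxl7 stood at 65.3 CPM, Dgkh at 51.1 CPM and Snhg11 at 116 CPM, from at most 4.74 CPM in any younger library. In neutrophils of that library these 3 stood at 4.07, 38.8 and 8.41 CPM, so Dgkh was near its level in the selected cells. On the list of interferon-stimulated genes 2 of 8 compared were higher (Isg15 and Irf1), beside 7.32% of all genes. Of these Isg15 reached 50 CPM at 16 months only, and 3 cells held 70% of the Isg15 UMIs.

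Among the genes that describe the lineage, the proteoglycans Omd and Ogn were higher past the fold at 16 months, 2 of 13 of that family, beside 7.32% of all genes. Omd encodes osteomodulin, a proteoglycan of mineralized matrix, and was counted at 328 (293 to 366), 247 (224 to 272), 264 (203 to 339) and 767 (678 to 864) CPM, with 12.4, 3.44, 6.18 and 1.09 CPM in neutrophils. It was detected in 47.1%, 37.1%, 38.2% and 81.2% of the cells after thinning, and 29 of 32 cells held it at 16 months. Ogn (osteoglycin) stood at 333 (298 to 372), 490.1 (457 to 525), 678 (577 to 792) and 2832 (2659 to 3013) CPM, with 13.7, 13.8, 23.2 and 54.8 CPM in neutrophils, and its median cell stood at 536 CPM at 3 months and 2754 CPM at 16 months. The range from the lower to the upper quartile of Ogn at 16 months, 1901 to 3653 CPM, lay above the upper quartiles of the younger libraries (524, 696 and 1020.5 CPM). Chad (chondroadherin), also of this family, was lower, at 148, 278, 55.5 and 11.4 CPM, with 33.8, 217, 118 and 2.98 CPM in neutrophils.

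**Figure D4:**
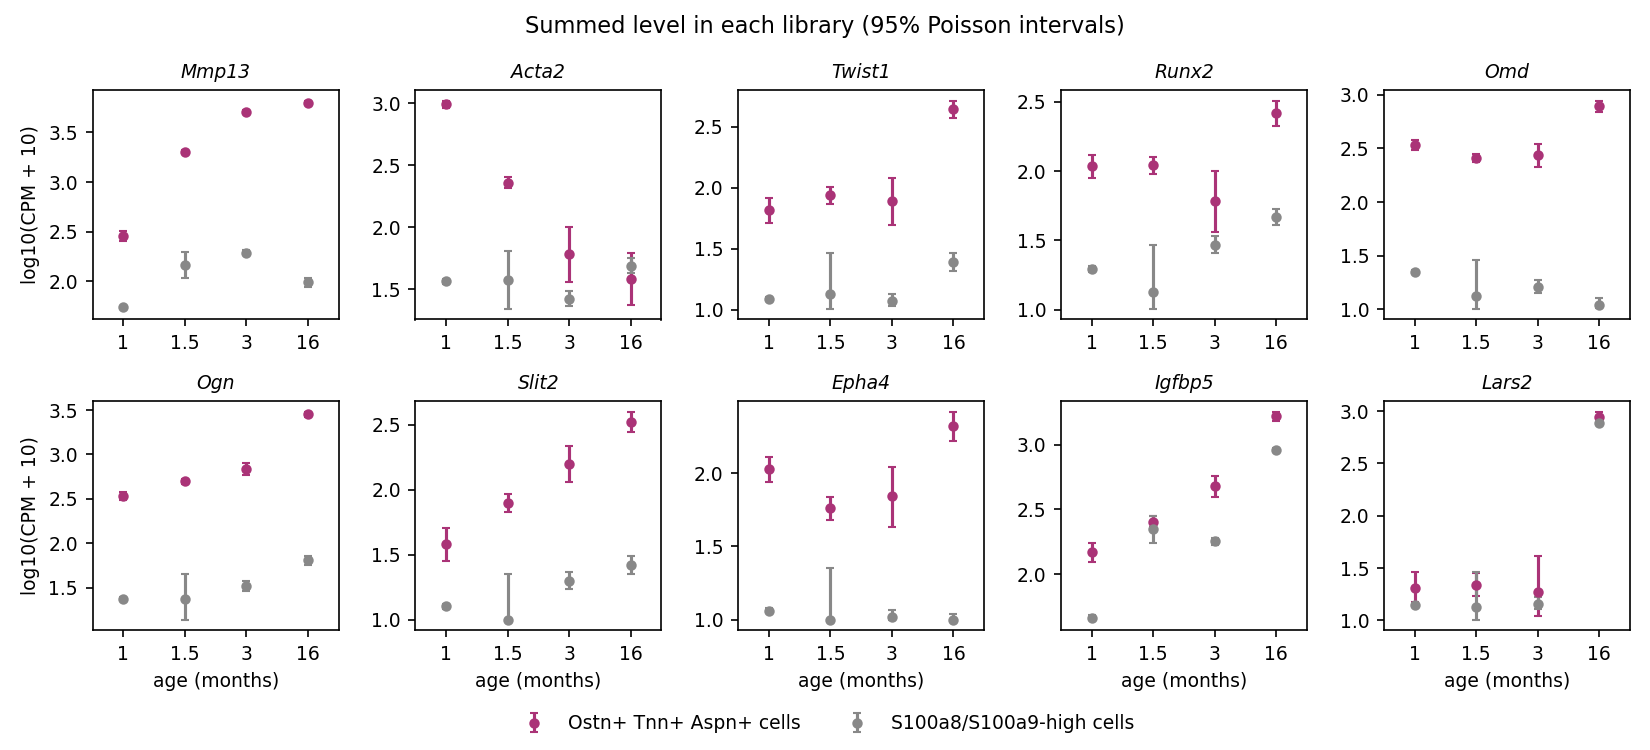
Summed level of 10 genes in Ostn+ Tnn+ Aspn+ cells (purple) and in S100a8/S100a9-high cells, the neutrophils (grey), as log10 of CPM plus 10, by age in months, with 95% Poisson intervals as whiskers and a separate axis for each gene. Twist1, Runx2, Omd, Ogn, Slit2 and Epha4 stand above the neutrophils at 16 months, while Igfbp5 (1642 against 894 CPM) and Lars2 (875 against 755 CPM) are higher in both.

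Of 17 osteogenic transcription factors compared, 5 were higher at 16 months and none lower, beside 7.32% and 3.55% of all genes. The 5 were Runx2, Twist1, Foxc1, Shox2 and Tcf4. Without the genes that reached 50 CPM at 16 months only, 4 of 13 were higher (all but Foxc1), beside 4.6% of all such genes. Twist1, a repressor of osteoblast maturation, was counted at 55.4 (41.5 to 72.4), 76.4 (63.8 to 90.8), 68.3 (39.0 to 111) and 429 (363 to 503) CPM, and after thinning in 15.3%, 22.8%, 20.6% and 75% of the cells. Twist1 stood at 39.4, 43.2, 63.8 and 241 CPM in osteoblasts and at 2.18, 3.44, 1.77 and 14.4 CPM in neutrophils. Runx2 was at 253 (203 to 311) CPM at 16 months and 51.2 (26.5 to 89.4) CPM at 3 months, with 9.53, 3.44, 19.4 and 36.6 CPM in neutrophils. Sp7 did not follow, at 59.6 (36.9 to 91.2) CPM at 16 months and 114 (98.3 to 131) CPM at 1.5 months. Vdr, the vitamin D receptor, was higher, at 24.0, 23.1, 38.4 and 128 CPM, reaching 50 CPM at 16 months only, while Cthrc1 of the mineralization list was lower, at 1141, 1201, 989.7 and 349 CPM, as was Mgp, an inhibitor of calcification, at 439.7, 850.4, 427 and 170.4 CPM.

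Of 9 axon guidance genes compared, 4 were higher at 16 months and none lower, beside 7.32% of all genes, and all 4 had at least 50 CPM in a younger library too (4 of 8, beside 4.6%). Slit2, a secreted repellent made by bone cells, was counted at 28.2 (18.6 to 41.0), 69.9 (57.9 to 83.7), 149 (104 to 208) and 324 (267 to 389) CPM and Slit3, its relative, at 18.8, 30.8, 55.5 and 162 CPM. Epha4, an ephrin receptor, stood at 96.1, 47.4, 59.7 and 199 CPM and Epha3 at 32.4, 50.4, 29.9 and 133 CPM. In neutrophils at 16 months these 4 genes were at 16.3, 14.6, 0 and 1.63 CPM. In osteoblasts Slit2 was counted at 55.4, 82.8, 124 and 198 CPM, also highest at 16 months.

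Of 17 genes of the TGF-beta and BMP pathway, 4 were past the fold on the higher side (Gdf10, Nog, Fst and Id2), beside 7.32% of all genes. However, Gdf10, Nog and Fst reached 50 CPM at 16 months only. Of the 7 genes with that level in a younger library, Id2 was the 1 that was higher, beside 4.6% of all such genes. Nog, the BMP antagonist noggin, was counted at 20.9, 32.0, 8.53 and 125 CPM, and Fst, the activin antagonist follistatin, at 3.13, 15.4, 4.27 and 68.2 CPM, with 44.2 CPM in neutrophils at 16 months. Id2, a target of BMP signalling, stood at 356, 394, 324 and 940.1 CPM, with 76.7, 72.2, 93.6 and 52.9 CPM in neutrophils. The IGF list had 3 of 12 higher (Igf1r, Igfbp2 and Igfbp5), beside 7.32% of all genes, and Igf1r and Igfbp2 reached 50 CPM at 16 months only. Igfbp5 was counted at 138, 245, 465 and 1642 CPM, but stood at 36.3, 213, 169 and 894 CPM in neutrophils and at 3105, 3807, 3139.8 and 7823 CPM in Adipoq+ Cxcl12+ cells, so it was highest at 16 months in those sets too, and the part of free RNA was not tested. Fgfr2 was higher, at 364 (303 to 432) CPM against 115 (75.9 to 168) CPM at 3 months, 1 of 8 of its list, beside 7.32% of all genes. In the Wnt list Fzd8 was the 1 of 13 that was higher, a share near the 7.32% of all genes. Fzd8 stood at 9.40, 14.8, 17.1 and 90.9 CPM, and it too reached 50 CPM at 16 months only. Tnfsf11, which encodes the osteoclast factor RANKL, was counted at 33.4, 51.6, 55.5 and 88.0 CPM and was not past the fold.

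The genes of the matrix lists past the fold at 16 months are given here, beside 7.32% (higher) and 3.55% (lower) of all genes compared. They were Col4a1 and Col4a2 (higher) and Col13a1 (lower) of 15 collagens (Col4a1 and Col4a2, like Ltbp2, reached 50 CPM at 16 months only), Thbs1 and Ctgf (higher) and Tgfbi (lower) of 18 matricellular proteins, Fbln1 and Ltbp2 (higher) of 9 elastic fibre genes, Adamts5 and Timp3 (higher) and Timp1 (lower) of 11 proteases and inhibitors, and Serpinh1 (lower) of 26 collagen processing genes. Col4a2, of basement membrane, stood at 15.7, 26.7, 8.53 and 156 CPM and Adamts5, an aggrecanase, at 57.4, 34.96, 59.7 and 273 CPM. Serpinh1, the collagen chaperone, was counted at 3653, 5015, 3852 and 1190.0 CPM, with 4115, 4408, 3982 and 2129 CPM in osteoblasts. Cdh11, the cadherin of osteoblasts, was higher at 213, 332, 401 and 889 CPM, with 108 CPM in neutrophils. Col12a1, Col16a1, Thbs2, Tnc and Postn were past the fold over the Ly6a+ Cd34+ Mfap5+ cells and the osteoblasts. At 16 months these abundant matrix genes were within 2-fold of the younger range.

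The immediate early genes gave the highest count of any list, 9 of 20 higher and none lower at 16 months, beside 7.32% and 3.55% of all genes (Fosb, Jun, Junb, Egr1, Ier3, Zfp36, Klf4, Nr4a1 and Socs3). These genes are known for their rapid response to stimuli. Jun, a component of AP-1, was counted at 1038, 1399, 1263 and 4252 CPM and Egr1 at 346, 488, 636 and 2428 CPM. In neutrophils Jun stood at 163, 547, 454 and 1031 CPM and Egr1 at 27.7, 99.7, 102 and 336 CPM, and in Ly6a+ Cd34+ Mfap5+ cells Egr1 was at 461, 704, 815 and 2496 CPM. Both genes were thus highest at 16 months in those sets as well.

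Markers of other cells were present to a degree that differed between libraries. The neutrophil list summed to 13016, 219, 13668 and 190.3 CPM in the selected cells, with 0, 1, 0 and 3 of its 10 genes at 0. At 3 months 3 cells held 91.0% of the S100a8 UMIs and the median cell stood at 629.8 CPM, while at 1 month every cell had some, with a median of 3191 CPM. The selected cells with at least 500 UMIs of S100a8 plus S100a9 per 10000 numbered 1, 0, 2 and 0. The erythroid list summed to 11747, 197, 277 and 261 CPM, with 0, 0, 4 and 3 of its 8 genes at 0, and 3 cells held 74.5% of the Hbb-bs UMIs at 1 month. The endothelial list summed to 34.5, 8.89, 25.6 and 88.0 CPM, with 2, 5, 4 and 5 of its 9 genes at 0, and of it Cdh5 and Emcn had no UMI at 1.5, 3 and 16 months, while Pecam1 was past the fold at 16 months, the one age at which it reached 50 CPM (18.8, 5.33, 4.27 and 76.7 CPM). The list of other blood cells summed to 1176, 36.7, 627 and 28.4 CPM, with 2, 2, 4 and 4 of 10 genes at 0. The chondrocyte list summed to 2867, 11073, 1907 and 1974 CPM against 852, 8484, 1034 and 159 CPM in neutrophils, so at 1.5 months it was near the level of free RNA. Its part in the levels above was not tested. Acan and Col11a1 stood apart from it at 1 month, at 415 and 1272 CPM against 41.3 and 86.5 CPM in neutrophils. The reporter tdTomato was counted at 3022, 3529, 3199 and 4607 CPM in the selected cells and 2823, 2892, 2687 and 661 CPM in neutrophils.

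The transcripts with the highest mean level in these cells were Malat1, Sparc, Col1a1, Col1a2, Col3a1, Gpx3, Lum, mt-Atp6, Postn, Dcn, mt-Co3, Rpl41, Lgals1, Gm42418, Actb, Fth1, Aspn, Cst3, Ftl1 and mt-Co1. Gpx3, a secreted glutathione peroxidase, was 1 of the 58 genes past the fold, at 2884, 9881, 14645 and 7044 CPM against 342, 1272, 4422 and 2107 CPM in Ly6a+ Cd34+ Mfap5+ cells and 569, 1468, 2509 and 919.6 CPM in osteoblasts, and was as high in Nov+ Tnmd+ cells, at 3769, 15081, 16966 and 6975 CPM. Lgals1 (galectin-1) was lower in each older library, at 6221, 4830.4, 4232 and 2241 CPM. Cst3 (cystatin C), an inhibitor of secreted proteases, was past the fold at 16 months, at 1348, 2035, 2956 and 9557 CPM, with 779, 805, 1410.5 and 1026 CPM in neutrophils.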

How the data were processed

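The authors aligned the 10x Chromium libraries with Cell Ranger 3.0.2 to mm10, and the submitters' processing notes also name Seurat 2. The annotation release is not given in the sources used here. The deposited values are raw counts, 1 UMI count per gene and cell barcode. The study's own filter was applied, which asks for 200 to 6000 detected genes and no more than 5% of UMIs from mitochondrial transcripts. The members, gates and gene lists were chosen with earlier results of these data known, so no count over them is independent evidence. UMIs were summed over the cells of a set in 1 library and scaled to CPM. Genes were named as members of 38 gene lists, as the 20 widest margins over both sets, as the 10 largest ratios per direction at 16 months, as the 20 highest mean levels and as the 15 highest ratios of variance to mean. Log2 differences used CPM plus 10 and, for the age contrast, the mean of the 3 younger libraries. For shares of cells, each cell was thinned to 3000 UMIs and shallower cells were left out, 1 of the members. Doublets were scored with Scrublet (30 components). It called 4.74%, 1.85%, 1.51% and 0.326% of the kept cells, of which the last is too few for a working call, so the highest 8% of scores were left out as an alternative and no cell was removed otherwise. Other alternatives changed the fold, the minimum of CPM, the Aspn limit, the total, the weighting of cells and the mitochondrial limit. Promoters came from RefSeq on GRCm38.p6 and positions from GENCODE M21 on GRCm38, and gene symbols from the deposited tables. The scripts were tested on simulated data. Python 3.11.15, numpy 2.4.6, scipy 1.17.1, pandas 2.3.3, scanpy 1.11.5, anndata 0.12.19 and matplotlib 3.10.9 were used.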

Additional observations from a re-analysis of the deposited data

Results flagged for a closer look

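In 3 genes the Ostn+ Tnn+ Aspn+ cells and another set went past the fold in opposite directions at 16 months, and the difference between the sets was not tested. Mgp, an inhibitor of calcification, was lower in the selected cells, at 170.4 CPM at 16 months after 439.7, 850.4 and 427 CPM, and higher in Ly6a+ Cd34+ Mfap5+ cells, at 2586 CPM after 1097, 1264 and 1282 CPM. Rgcc, a regulator of the cell cycle, was higher in the selected cells, at 977 CPM after 403, 376 and 392 CPM, and lower in Ly6a+ Cd34+ Mfap5+ cells, at 158 CPM after 388, 574 and 549 CPM. Id2, a target of BMP signalling, was higher in the selected cells, at 940.1 CPM after 356, 394 and 324 CPM, and lower in Adipoq+ Cxcl12+ cells, at 106 CPM after 261, 317 and 270.3 CPM. At 16 months the Ly6a+ Cd34+ Mfap5+ cells numbered 23.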

How the results depend on the processing

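Of 44 alternative values over 12 settings, 37 were classed as close to the reported ones, but some of these differed clearly from them. A fold of 3 left 39 of the 58 genes above both sets, and a minimum of 100 CPM left 43. That minimum gave 190 higher genes at 16 months in place of 262, and a fold of 1.5 gave 337. With every cell thinned to 3000 UMIs before the rule, the share of kept cells was 0.698% at 1 month, 1.94% at 1.5 months and 0.338% at 16 months, and 0.801% at 3 months, so the 3 month share was then above that at 1 month. A fold of 1.5 gave 208 lower genes at 16 months in place of 127. A fold of 3 gave 133 higher and 54 lower genes in place of 262 and 127. With at least 50 CPM asked of a younger library, 145 of the 262 higher genes were left, a setting chosen after seeing the data. The limit of 10% mitochondrial UMIs for the age contrast, also chosen then, gave 284 higher and 130 lower genes. No paired analysis was possible because each age is 1 library and no test was made. The 32 to 35 cells of the older libraries limit the precision there, and the 16 month library differs from the others in its gene table and barcode list, which cannot be told apart from age.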

Other observations

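Imprinted growth genes were highest at the younger ages for 3 of the 4 looked at, which were chosen after their values were seen. H19 was counted at 343, 204, 46.9 and 5.68 CPM in the Ostn+ Tnn+ Aspn+ cells and Igf2, the fetal growth factor, at 121, 40.9, 4.27 and 0 CPM. In neutrophils H19 stood at 33.3, 113, 3.97 and 0.271 CPM and Igf2 at 12.5, 6.88, 0.662 and 0.543 CPM. Mest was counted at 414, 292, 72.5 and 85.2 CPM, and Cdkn1c, an inhibitor of the cell cycle, at 316, 517, 319.9 and 744 CPM, which was highest at 16 months. Mest and Cdkn1c were among the 58 genes above both other sets, with Mest at 78.8, 50.2, 9.15 and 22.5 CPM in Ly6a+ Cd34+ Mfap5+ cells and Cdkn1c at 102, 183, 36.6 and 152 CPM there.

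Genes that set position along the limb were present at low levels. Hoxc10, of the hindlimb, was counted at 60.6, 72.9, 81.1 and 99.4 CPM and Pitx1, which specifies the hindlimb, at 14.6, 48.6, 38.4 and 68.2 CPM. Of the 3 positional genes compared, none was past the fold at 16 months.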
